A study of Schizosaccharomyces pombe with 56 samples.

Results

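Genes for dehydrogenases outside glycolysis were examined for dimethylation of histone H3 at lysine 9 (H3K9me2) in fission yeast, Schizosaccharomyces pombe, before and after the removal of nitrogen. Members were all nuclear protein-coding genes whose RefSeq product contains the word dehydrogenase, apart from gpd3, tdh1 and adh1, and the rule used no measured value. It gave 87 of 5113 genes, which were grouped by product into the TCA cycle (15 genes), amino acid metabolism (14), redox and pentose phosphate enzymes (12), aldehyde oxidation (9), other reactions (34) and regulators of a dehydrogenase (3). The series holds 56 ChIP-seq libraries, of which 24 were H3K9me2 immunoprecipitations. The values used here compare the wild-type strain 975 h+ in supplemented minimal medium before starvation (0 h, 6 H3K9me2 libraries in the labels) with the same strain 24 h after transfer to nitrogen-free medium (6 libraries). Both groups carry no deletion and were immunoprecipitated with the same antibody lot. The tables hold 1 mean per group and region, as normalised reads, and give neither depth nor spread for a library. The name of the deposited sheet holds 5 digits, so these means may rest on 5 of the 6 labelled libraries per group.

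Dehydrogenases take hydrogen from a substrate and pass the electrons to NAD+, NADP+ or a flavin, and so stand at the oxidative steps of most pathways of carbon and nitrogen metabolism. H3K9me2 is written in fission yeast by the methyltransferase Clr4 and bound by HP1 proteins, and in growing cells it is known chiefly from silent chromatin at centromeres, chromosome ends and the mating-type locus. Cells of a single mating type that are moved to medium without nitrogen cannot mate, stop dividing and enter quiescence, in which they recycle amino acids and change their metabolism.

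H3K9me2 was higher at 24 h over 21 of the 87 dehydrogenase genes and lower over 0, at the FDR of 0.05 in the authors' deposited table. The same source gave 0 members lower at an unadjusted p under 0.05. More cells with the mark and more of the mark per cell cannot be told apart in these bulk samples. The 21 were the genes of malic enzyme, 2-oxoglutarate dehydrogenase and malate dehydrogenase, of 4 amino acid enzymes, of 3 redox enzymes, of 5 aldehyde dehydrogenases, 5 genes of other reactions and 1 phosphatase of pyruvate dehydrogenase. They made up 24.1% of the members, against a background of 10.5% of all 5113 genes for higher and 0.196% for lower. Members also lay more often under a listed region of any kind, 66 of 87 (75.9%) against 54.8% of all genes. Among genes under a region that was tested, 48.8% of 43 members were higher, against 31.8% of all genes. Counted by region, 21 of the 64 distinct regions over members were higher, against 20.7% of all 2192 listed regions, and 21 of 41 tested ones, against 32.7% of 1385. At an FDR of 0.01 the members numbered 18, against a background of 7.06%. With other overlap rules they numbered 21 with genes extended by 500 bp (background 13.4%), 20 with at least 50% of the region in the gene (9%) and 20 with 1 gene per region (8.68%). These calls are the authors': limma on reads recovered for single libraries, in which libraries without recovered signal stood at 0, called 0 members. These shares are descriptions, since genes share the same libraries, and the difference from other genes was not tested.

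Counts by group ran from 5 of 9 to 5 of 34. Of the 9 aldehyde genes 5 were higher, 2 lay under a tested region that was not called and 2 under no region. Every one of the 14 amino acid genes lay under a listed region, with 4 higher, 6 tested without a call and 4 under a region listed with a p of 1. The TCA cycle group had 3 higher of 15, with 4 tested without a call, 6 at a p of 1 and 2 under no region. Malic enzyme, among those higher, was placed in this group by its product wording. Of the 12 redox genes 3 were higher, 3 were not called, 4 stood at a p of 1 and 2 lay under no region. The other reactions had the lowest share, 5 of 34 (14.7%), and 13 of these genes lay under no region. No test between pathways was made, since genes are not replicates.

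**Figure D1:**
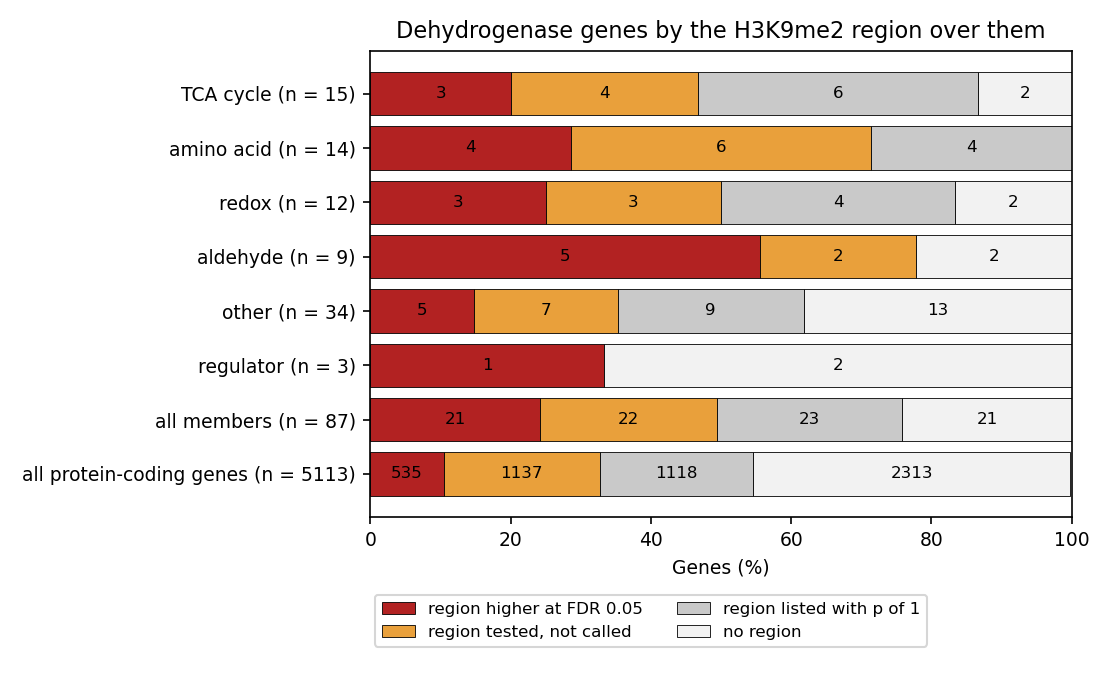
Share of genes (%) by the H3K9me2 region that overlaps them, for each group of dehydrogenase genes, all 87 members and all 5113 protein-coding genes, with the number of genes printed in each bar. The red part, regions higher at 24 h at an FDR of 0.05, is widest for aldehyde genes (5 of 9) and narrowest for all genes (535 of 5113); the 10 genes under a region lower at 24 h form the thin unlabelled strip at the right end of the bottom bar.

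Regions that rose began inside the coding sequence in most members, and most regions that were not called also began after the first coding base. To show where, the 120 bases around the region edge nearest the gene start are printed for 1 gene of each pathway, the called member with the highest 24 h mean whose window lay inside a single coding exon. Sequences are from the RefSeq assembly ASM294v3, on the coding strand, and capitals mark the bases inside the deposited region.
mae2, III:276999-277118, minus strand: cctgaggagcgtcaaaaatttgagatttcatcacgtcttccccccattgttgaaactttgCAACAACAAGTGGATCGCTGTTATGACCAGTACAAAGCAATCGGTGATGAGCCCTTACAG
ser3, III:471814-471933, minus strand: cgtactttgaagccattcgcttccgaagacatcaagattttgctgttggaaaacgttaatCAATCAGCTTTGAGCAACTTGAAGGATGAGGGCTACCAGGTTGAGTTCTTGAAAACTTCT
gnd1, II:231742-231861, plus strand: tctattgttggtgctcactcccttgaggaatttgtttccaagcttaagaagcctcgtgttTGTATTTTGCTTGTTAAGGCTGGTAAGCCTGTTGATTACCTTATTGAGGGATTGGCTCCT
ssd1, I:1819556-1819675, minus strand: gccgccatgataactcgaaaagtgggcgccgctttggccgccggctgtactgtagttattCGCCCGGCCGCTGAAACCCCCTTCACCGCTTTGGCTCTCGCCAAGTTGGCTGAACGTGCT
The first base in capitals is coding base 154 of 1698 in mae2, 196 of 1401 in ser3, 220 of 1479 in gnd1 and 577 of 1497 in ssd1.

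The 2 highest called means among the 4 metabolic pathways were those of mae2 and kgd1, both in the TCA cycle group. All 3 called genes had the lowest 0 h value of the authors' deposited table, 0.770 normalised reads. Each fold below is therefore a lower bound, taken against 2.31 normalised reads, the equivalent of 3 counts in every library. Reads were recovered for single libraries from the group means, as whole counts above the minimum. The fit was set to 2 libraries with signal at 0 h (a and b) and 3 at 24 h (c, d and e). The deposited values do not tie these letters to the labelled replicates. The remaining libraries of the 5 assumed per group, 3 at 0 h and 2 at 24 h, were thus left at the minimum. With these settings 2177 regions at 0 h and 2175 at 24 h, of 2192, were resolved.

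Malic enzyme, encoded by mae2, turns malate into pyruvate, which is not a step of the cycle itself. It was grouped here by its RefSeq product, malate dehydrogenase Mae2. The region over mae2 (III:275542-277058) had 196, 128 and 60 recovered reads in libraries c, d and e and none at 0 h. The 3 libraries with signal at 24 h thus stood above all at 0 h, and the other 2 did not. In the authors' deposited table the 24 h mean of mae2 was 66.6 normalised reads, at least 28.8-fold higher (FDR 0.000611). Malate dehydrogenase, encoded by mdh1, makes the oxaloacetate that starts each turn of the cycle, and had 121, 48 and 43 reads in c, d and e and none at 0 h. The authors' deposited table gave it 36.1 normalised reads at 24 h, at least 15.6-fold higher (FDR 0.00175). The E1 subunit of 2-oxoglutarate dehydrogenase, kgd1, had 332 reads in c, 30 in d and none in e, so its mean rested mostly on 1 library. Its region of 6002 bp also covered 2711 bp of the sulfate transporter gene sul1, and the share of either gene in the reads cannot be told apart. The authors' deposited table gave kgd1 a mean of 59.8 normalised reads, at least 25.9-fold higher (FDR 0.00187), and without library c the mean would be 8.26.

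The other TCA genes with a tested region already carried reads at 0 h. Sdh1, the flavoprotein subunit of succinate dehydrogenase, had 162 and 96 reads in libraries a and b at 0 h and 201, 128 and 49 in c, d and e. The 0 h values lay within the range of the 24 h values, and the authors' deposited table gave 39.6 and 65.8 normalised reads (FDR 0.874). Dihydrolipoamide dehydrogenase, dld1, the subunit shared by several 2-oxoacid dehydrogenase complexes, had 11.0 and 29.7 in the authors' deposited table (FDR 0.591). The NAD+-dependent isocitrate dehydrogenase subunit idh1 had 3.84 and 11.2 normalised reads in the authors' deposited table (FDR 0.481), and the pyruvate dehydrogenase E1 beta subunit pdb1 had 13.3 and 21.5 (FDR 0.871). None of these 4 passed the threshold. Partner subunits of the same complexes, idh2, pda1, pdx1, sdh2 and sdh3, stood with idp1 under regions listed with a p of 1 in the authors' deposited table, at 11.6 to 27.6 normalised reads at 24 h and the minimum at 0 h. The idh2 region, the highest of these, held 1873 bp of rmn1 against 1606 bp of idh2. That of sdh3 held 4166 bp of btb1 against 293 bp of sdh3, and that of pdx1 2285 bp of SPCC1259.08 against 1302 bp. The reads of these regions cannot be assigned to the subunit genes alone.

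Among amino acid genes the 4 called members belong to biosynthesis, as do most members of this group. The gene of phosphoglycerate dehydrogenase, ser3, which opens the serine pathway, had 139 reads in library c, 33 in d and 0 in e, and none at 0 h. Its region (III:470757-471873) lay wholly inside the gene, and the authors' deposited table gave it 29.6 normalised reads at 24 h, at least 12.8-fold higher (FDR 0.00423). Homoserine dehydrogenase, hom6, on the way to threonine and methionine, had 94, 3 and 15 reads in c, d and e. Its deposited mean of 18.6 normalised reads, at least 8.06-fold higher in the authors' deposited table (FDR 0.00619), would be 4.30 without library c. Histidinol dehydrogenase, his2, which ends histidine synthesis, had 94 and 13 reads in c and d, and saccharopine dehydrogenase, lys9, of the lysine pathway, had 65 and 26. The authors' deposited table listed his2 at 18.4 normalised reads (FDR 0.00794) and lys9 at 16.4 (FDR 0.00868), at least 7.96-fold and 7.08-fold higher. The region over his2 reached on into an uncharacterized gene and the meiotic recombination gene rec15.

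The other 6 amino acid members under a tested region were not called. NADP-dependent glutamate dehydrogenase, gdh1, which fixes ammonium into glutamate, had 99 reads in library a at 0 h and none in b, against 261, 116 and 13 in c, d and e. The groups overlapped, and the authors' deposited table gave 13.5 and 67.6 normalised reads (FDR 0.334). Aspartate semialdehyde dehydrogenase, hom2, which acts just before hom6, had 3.84 and 25.6 normalised reads in the authors' deposited table (FDR 0.175). Proline dehydrogenase, put1, had 22 reads in library c and none elsewhere, and the authors' deposited table gave it 4.28 normalised reads at 24 h (FDR 0.112). The enzyme after it, put2, stood at 24.8 and 27.1 normalised reads in the authors' deposited table (FDR 0.988). The lysine genes differed: lys1 had 57.4 and 83.7 normalised reads (FDR 0.955) under a region that also lies wholly in the overlapping gene prm1, and lys12 stood at the minimum at both times in the authors' deposited table. The NAD-dependent glutamate dehydrogenase gdh2, with leu1, lys3 and tyr1, lay under regions with a p of 1 in the authors' deposited table, at 4.96 to 26.6 normalised reads at 24 h.

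Both NADPH-forming steps of the oxidative pentose phosphate pathway were covered. Phosphogluconate dehydrogenase, gnd1, had 166 reads in library c, 67 in d and 0 in e, with none at 0 h. The authors' deposited table gave gnd1 40.7 normalised reads at 24 h, at least 17.6-fold higher (FDR 0.00259), in a region that ran past the gene end and overlapped 480 bp of an uncharacterized gene. Glucose-6-phosphate dehydrogenase, zwf1, had 78 and 37 reads in c and d, and its mean of 20.6 normalised reads in the authors' deposited table was at least 8.93-fold higher (FDR 0.00624). The gene gcd1, with the same RefSeq product, had 32 and 10 reads and the lowest 24 h mean of any called member. In the authors' deposited table this was 7.88 normalised reads, at least 3.41-fold higher (FDR 0.0288). SPAC3C7.13C, the remaining gene with that product, had 34 reads in library c alone and a p of 1.

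Respiratory and glycerol enzymes in the redox group were not called. For nde1, gut2 and the D-lactate dehydrogenase gene dld2 the regions took no part in the authors' FDR. These stood at the minimum at 0 h and had reads at 24 h in library c alone. Their 24 h means in the authors' deposited table were 26.2 normalised reads for nde1, 5.08 for gut2 and 23.0 for dld2. NADH dehydrogenase ndi1, which feeds electrons to ubiquinone, had 141 and 104 reads in libraries a and b at 0 h and 130, 107 and 53 at 24 h. These values overlapped, at 38.4 and 50.8 normalised reads in the authors' deposited table (FDR 0.988). Glycerol-3-phosphate dehydrogenase gpd1, needed for glycerol synthesis, had 70 and 28 reads at 0 h against 214, 184 and 57 at 24 h. Library e lay within the 0 h range, and the authors' deposited table gave 15.0 and 80.2 normalised reads (FDR 0.270). The related gene gpd2 lay under no region. A lactate dehydrogenase gene, SPAC186.08C, and the hydroxyacid dehydrogenase genes SPAC186.02C and SPAC186.07C lay inside the domain at the right end of chromosome I (I:5524449-5579133). In the authors' deposited table this domain held the highest level over any member at both times, 40053 normalised reads at 0 h and 18494 at 24 h. The log2 change listed by the authors' deposited table, -1.11, was not called (FDR 0.176).

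Aldehyde dehydrogenases, which oxidise aldehydes to acids, were the group with the most calls for its size. The gene with the highest mean was atd1, with 195 reads in library c, 67 in d and 0 in e, and none at 0 h. The authors' deposited table gave it 45.3 normalised reads at 24 h, at least 19.6-fold higher (FDR 0.00233), in a region that also covered 567 bp of the checkpoint gene rad26. Its relatives atd3 and atd2 had 78 and 25, and 61 and 22, reads in c and d. Their means in the authors' deposited table were 18.2 (FDR 0.00751) and 14.9 normalised reads (FDR 0.0101), at least 7.90-fold and 6.46-fold higher. Both succinate-semialdehyde dehydrogenases, which complete the breakdown of gamma-aminobutyrate to succinate, were called as well. Their reads were shared between 2 libraries, 60 and 60 in c and d for ssd1 and 60 and 41 for ssd2. In the authors' deposited table ssd1 reached 22.4 normalised reads, at least 9.68-fold higher (FDR 0.00544), and ssd2 reached 18.6, at least 8.04-fold higher (FDR 0.00717). A further 2 members were tested without a call, fmd1 for formaldehyde (1.67 and 8.26 normalised reads, FDR 0.146) and SPBC21C3.15C (15.1 and 25.6, FDR 0.849), in the authors' deposited table. The related formaldehyde genes fmd2 and fmd3 lay under no region.

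**Figure D2:**
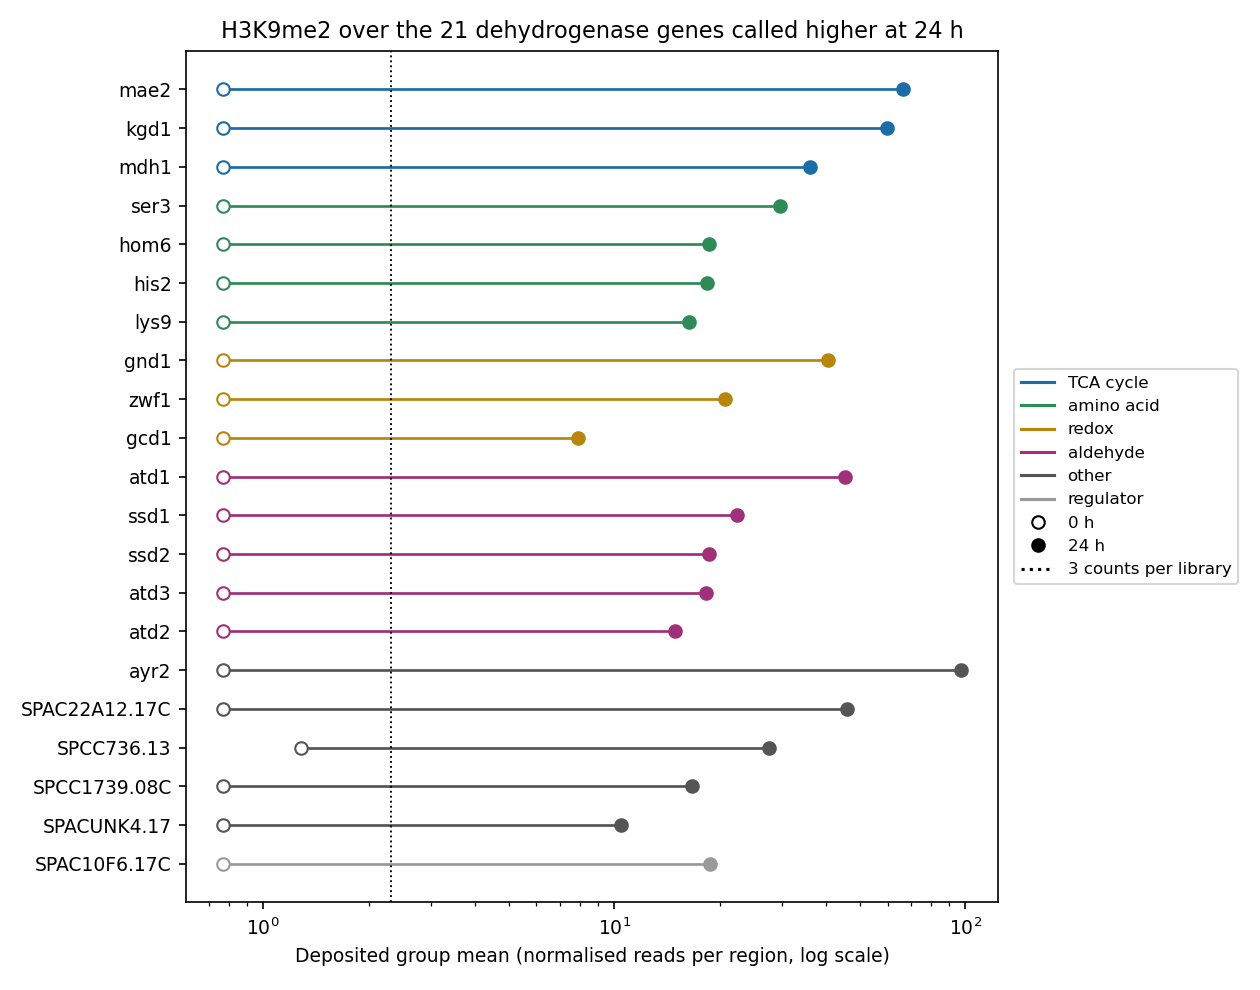
Deposited group means (normalised reads per region, log axis) at 0 h (open circles) and 24 h (filled circles) for the 21 dehydrogenase genes called higher, coloured by pathway; the dotted line marks 3 counts per library, 2.31 normalised reads. All but SPCC736.13 (1.28) stand at the 0.770 minimum at 0 h, and the 24 h means run from 7.88 (gcd1) to 97.0 (ayr2).

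The remaining called members are mostly uncharacterized. Among called members ayr2, with 432, 1 and 182 reads in c, d and e, had the highest 24 h mean. The authors' deposited table gave it 97.0 normalised reads (at least 42.0-fold higher, FDR 0.000611). This value cannot be assigned to ayr2 alone. Its coding sequence of 711 bases is 100% identical to that of SPBC1348.09 near the left end of chromosome II, and each 31-base word of ayr2 recurs in the genome. The region of 3089 bp also held 1915 bp of the phospholipase gene plb4, against 765 bp of ayr2. SPBC1348.09 had 81 reads in library b at 0 h and 312, 53 and 189 at 24 h, and 16.0 and 89.3 normalised reads in the authors' deposited table (FDR 0.291). The region assigned to SPAC22A12.17C (106, 130 and 16 reads in c, d and e) began past its last coding base and lay wholly within the overlapping gene acl2, a subunit of ATP-citrate synthase. The authors' deposited table gave it 46.1 normalised reads, at least 20.0-fold higher (FDR 0.00141).

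SPCC736.13 was the 1 called member with a read at 0 h, 4 in library a, against 78, 66 and 8 at 24 h. The authors' deposited table gave it 1.28 and 27.6 normalised reads (FDR 0.00808). The 0 h value lies below the 2.31 used for the bounds, so no fold is given. SPCC1739.08C had 83 and 13 reads in c and d and SPACUNK4.17 had 37 and 19. In the authors' deposited table these stood at 16.6 (FDR 0.00912) and 10.5 normalised reads (FDR 0.0170), at least 7.20-fold and 4.54-fold higher. Of the 3 regulators, SPAC10F6.17C, whose product names a phosphatase of pyruvate dehydrogenase, had 75 and 30 reads and 18.7 normalised reads in the authors' deposited table, at least 8.12-fold higher (FDR 0.00717). The kinase gene of the same complex, pkp1, and the succinate dehydrogenase assembly gene sdh6 lay under no region.

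The 64 distinct regions over members had a median log2 change of 4.20 in the authors' deposited table, against 2.43 over all 2192 regions. Since 43 of the 64 and 1154 of the 2192 stood at the 0 h minimum, these medians depend on that value. With the minimum raised to 2.31 normalised reads they were 2.74 and 1.73. The called members did not stand above other called regions. Their median log2 change was 4.61 against 4.75 over all 453 called regions (3.16 against 3.45 with the minimum raised), and their median at 24 h was 20.6 normalised reads against 24.3, in the authors' deposited table. Member regions that were tested without a call were higher at 0 h, with a median of 14.2 normalised reads in the authors' deposited table. Recovered reads placed 0 h signal in library a for 15 and in library b for 10 of 19 such regions, against 1 and 0 of the 21 called regions. Since the call itself compares 24 h with 0 h, this difference follows at least in part from the selection and is no separate result.

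Signal over members was unequal between the 24 h libraries. Each of the 21 called regions had reads in c and d, 6 of them also in e, and library c held the most in 18. Without library c the 24 h means of the called members ran from 3.26 to 43.9 (median 9.01) in place of 7.88 to 97.0 (median 20.6), a fall of over 1.5-fold in 18 of the 21. The lower bounds of the 20 members at the 0 h minimum were then smaller as well, 1.41-fold in gcd1 in place of 3.41-fold. Over all 63 member regions with recovered reads, 61 were higher at 24 h, and 34 without library c. limma on the recovered values of 2174 regions, with libraries lacking recovered signal set to 0, called 0 members and 0 regions at a Benjamini-Hochberg adjusted p of 0.05. Below an unadjusted 0.05 limma placed 73 of the 2174 regions, every one higher at 24 h. Of the 63 member regions 3 were among them, mae2, mdh1 and SPAC22A12.17C, each with a limma adjusted p of 0.611. Both shares lie under 0.05, the share that chance alone would give, so these 3 do not stand out. The direction is limited by the input, in which at most 2 libraries at 0 h and 3 at 24 h held signal.

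A further 23 members lay under regions listed with a p of 1, which took no part in the authors' FDR. Their levels at 24 h overlapped those of the called members, at 4.96 to 45.8 normalised reads (median 17.9) in the authors' deposited table, and 20 of them stood at the minimum at 0 h. All 23 had reads in library c, and in 21 no other 24 h library had any. The exceptions were gdh2, with 10 reads in d, and leu1, with 1. The highest was gua1, the IMP dehydrogenase of guanine nucleotide synthesis, with 282 reads in library c and 45.8 normalised reads in the authors' deposited table, in a region of 4515 bp that covered 1811 bp of gua1 and 2568 bp of klp5. Over the whole genome 688 of 806 such regions likewise had signal in 1 library at 24 h. How the authors set a p of 1 is not given in the sources used here, and no change is claimed for these genes.

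Called regions lay in the body of the genes. Of the 21 called regions 16 were wholly inside the gene (76.2%), 5 ran past its end and 1, that of ayr2, covered its start, by 3 bp. Over all genes under a called region the shares were 73.0% inside, 23.0% over the end and 5.39% over the start. In 19 of 21 the region began after the first coding base (in 1, SPAC22A12.17C, past the last coding base), and over all 21 the median distance from the first coding base was 278 bp. In 15 it ended before the last coding base. A start after the first coding base was also seen for 17 of 22 members tested without a call and 20 of 23 with a p of 1. The 23 regions with a p of 1 were wider, with a median of 2595 bp against 1117 bp for called ones. Of these 23, 12 ran past the gene end (52.2%), against 45.0% over all genes under such a region. Since no other called region touched an annotated start, no promoter is shown.

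**Figure D3:**
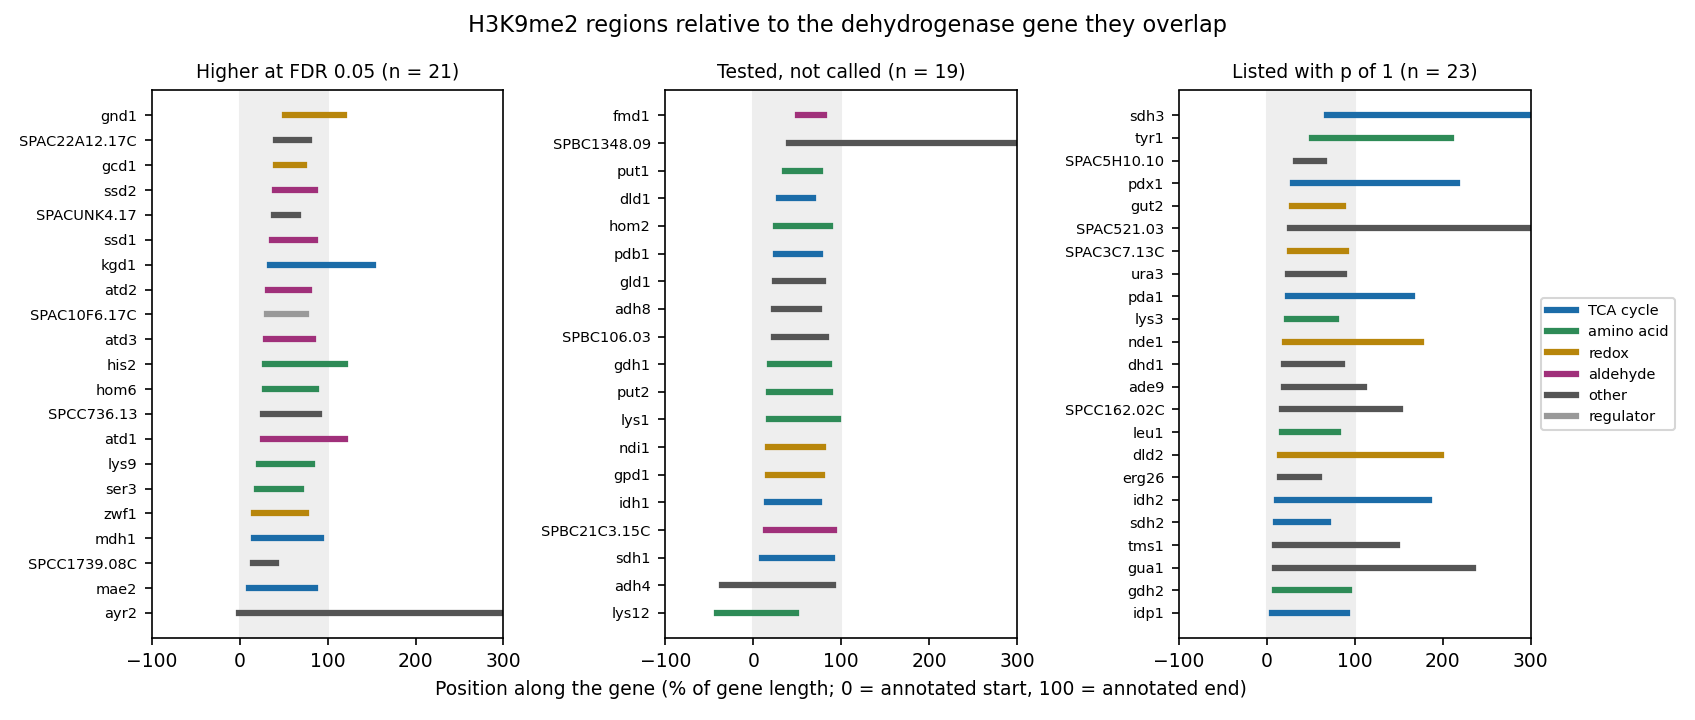
Extent of each deposited region along the dehydrogenase gene it overlaps, in % of gene length from the annotated start (0) to the annotated end (100, grey band), coloured by pathway and cut at 300%; the chromosome end domain over 3 members is left out. Of the 21 called regions 16 lie within the band, whereas 12 of 23 regions with a p of 1 run past the gene end.

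Sequence repeats touched few members. Of the 66 members under a region, 61 had no 31-base word that occurs elsewhere in the genome. Of relatives of which 1 was called and the other not, ayr2 and SPBC1348.09 share 100% of aligned coding bases. By contrast, zwf1 and SPAC3C7.13C share 63.9%, and atd1 and SPBC21C3.15C 63.6%. Relatives that were both called were about as far apart, with 64.7% for zwf1 and gcd1 and 64.1% for ssd1 and ssd2. In mae2 6.34% of the gene, and 8.07% of its deposited region, recurs in the end domains of chromosomes I and II, where H3K9me2 is high. These copies lie within the listed regions I:1-37131, I:5524449-5579133 and II:4492493-4539804. The part of these repeats in the mae2 value was not tested.

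Genes of the same pathways that are no dehydrogenases, on lists chosen with earlier results of these data known, were called as well, against the background of 10.5% of all genes. Of 7 TCA partners 4 were higher, citrate synthase (cit1), an aconitase (aco1), a succinyl-CoA ligase subunit (lsc1) and pyruvate carboxylase (pyr1), and the authors' deposited table gave them 28.9 to 86.2 normalised reads at 24 h. Of 21 amino acid partners 8 were higher and 0 lower. They included glutamine synthetase (gln1) at 87.0 normalised reads and glutamate synthase (glt1) at 236 in the authors' deposited table, the pair that assimilates ammonium in place of gdh1 when it is scarce. Of 16 redox partners 6 were higher and 0 lower, among them transaldolase (tal1), superoxide dismutase (sod1) and catalase (ctt1), at 61.5, 26.4 and 46.2 normalised reads in the authors' deposited table. The 3 dehydrogenase genes left out for their place in glycolysis and fermentation, gpd3, tdh1 and adh1, were each higher, and the authors' deposited table gave them 84.5, 53.5 and 106 normalised reads at 24 h.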

How the data were processed

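Chromatin of cross-linked wild-type cells was immunoprecipitated with an antibody to H3K9me2 and sequenced, per the labels' protocols. The submitters' processing notes name Bowtie2 2.2.7, MACS2 2.1, DiffBind 1.16.3, DESeq2 and the build ASM294v2, without role or order. The sources used here do not say whether input reads were subtracted. The authors deposited log2 values of the mean normalised reads per region for each group, and a log2 fold as 0 h minus 24 h, per the file headers. Here means are given on the linear scale and the sign was turned to 24 h minus 0 h. Per the file headers, the authors also deposited p-value and FDR columns. Adjusting the 1385 p-values below 1 by Benjamini-Hochberg gave the deposited FDR back within 1.5e-15; the other 807 regions had a p of 1.

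The design allowed for values per library, but the tables hold group means, so the authors' FDR (threshold 0.05) was described in their place. Values are the authors' means and carry no SD or n. The depth per library is not given, and it limits the low values most: 1154 regions stood at the minimum of 0.770 normalised reads at 0 h and 151 at 0.771 at 24 h. Bounds use 3 counts per library, a choice made here, and are bounds on the deposited values, not on H3K9me2 itself, since subtracted input, if any, would hide reads at the minimum.

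Whole reads per library were recovered from the steps between group means, assuming 5 libraries per group, the number of digits in the name of the deposited sheet. At 0 h 2177 and at 24 h 2175 of 2192 regions were resolved, within a relative tolerance of 3e-14 and up to 600 normalised reads, and of 120 and 300 shifted values 0 were. The numbers of libraries solved for, 2 at 0 h and 3 at 24 h, were set in the fit. Under these settings 3 libraries at 0 h and 2 at 24 h could hold no recovered signal. Recovered values of 2174 regions were fitted as log2(value + 1) with limma 3.58.1 in R 4.3.3, with a trend on the mean. A fold on that scale understates changes of low regions. The limma fit was also run on simulated data with reads in every library. The recovered values instead hold libraries set to 0, so that run does not show what limma could call here. The labels do not state whether replicates are separate cultures. The limma p-values then reflect only how these libraries vary, which may be technical.

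Genes came from the RefSeq annotation of ASM294v3, whose 3 nuclear chromosomes end where the last deposited regions end. A region was assigned to each gene it overlapped by at least 1 bp, and coordinates count from 1. Members were grouped by symbol and product wording; lys1, an aldehyde enzyme by wording, was placed with amino acid genes. Members named with values were all called ones, those of the 4 metabolic pathways under a tested region, and those with the highest means; SPBC1348.09, gua1 and the genes named at a p of 1 were chosen after their values were seen. The members and lists were chosen with earlier results of these data known. Repeats were counted as 31-base words on both strands, and coding identity by global alignment (Biopython 1.88). A listed gene is not reported here. Wild-type 1 h, clr4D, ago1D, H3K9me3 and input libraries were not analysed here.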

Additional observations from a re-analysis of the deposited data

Results flagged for a closer look

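Sets of values numbered 126 (63 member regions at 2 times, with libraries lacking recovered signal taken as 0). In 46 of them the highest of 5 libraries stood apart from the other 4 by more of the range than Dixon's 95% limit allows. That limit's rate of 1 in 20 counts both ends of full sets of 5, and only the highest value was examined. No such rate applies here, since 3 values at 0 h and 2 at 24 h were entered as 0. In 35 of the 46 the gap was the whole range (ratio 1), because a single library held reads. At 24 h this was library c over idh2, idp1, pda1, pdx1, sdh2, sdh3, put1, lys3, tyr1, adh4, SPBC106.03, SPAC521.03, SPAC5H10.10, SPCC162.02C, ade9, dhd1, erg26, gua1, tms1, ura3, SPAC3C7.13C, dld2, gut2 and nde1. At 0 h it was library a over idh1, dld1, fmd1, hom2, gdh1, SPCC736.13, adh8, ade9, erg26 and ura3, and library b over SPBC1348.09.

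Library c also stood apart at 24 h over 4 called members, kgd1 (ratio 0.887), hom6 (0.851), his2 (0.827) and SPCC1739.08C (0.804). The same library did so over gdh2 (0.916), leu1 (0.95), lys1 (0.846), put2 (0.767) and SPBC21C3.15C (0.713). At 0 h library b did so over SPBC21C3.15C (0.795) and library a over gld1 (0.92). The letters name recovered libraries and are tied to no labelled replicate.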

How the results depend on the processing

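The count of 21 members higher at 24 h was 18 at an FDR of 0.01, where atd2, SPACUNK4.17 and gcd1 were no longer called. It was 20 with at least 50% of the region inside the gene (ayr2 was lost), 20 with each region given to 1 gene, 20 without regulators, 20 without ayr2 and 21 with genes extended by 500 bp. limma on the recovered reads, chosen after seeing the data, called 0 members, and 0 with each library left out and with a pseudocount of 0.5; the cause was not tested. Members under any region numbered 66, and 69, 55 and 52 under the 3 other overlap rules. The median log2 change of 4.20 became 4.74 with both groups at the same total, 2.48 at the same median of tested regions and 2.74 with the 0 h minimum raised to 3 counts per library, and these settings moved all log2 changes, by 0.54 and -1.72 for the scalings. At the same median 49 member regions were higher at 24 h in place of 62, and of the 36 named members 9, none called, turned negative: idh1 (-0.18), dld1 (-0.29), pdb1 (-1.02), sdh1 (-0.99), SPBC21C3.15C (-0.96), lys1 (-1.18), lys12 (-1.72), put2 (-1.59) and ndi1 (-1.32). The 21 called members kept their sign under both scalings. Shifts of this size could not turn them, since their lowest log2 change was 3.36, and the FDR was not recomputed. Of 63 resolved member regions 61 were higher at 24 h, and 34 to 62 with each library left out, the lowest without library c. No paired analysis was possible because the deposited columns are group means and the recovered libraries carry no replicate number. Count tests with other size factors were not run: the tables hold no counts, and the recovered reads leave out regions above 600 normalised reads, so they give no library totals. Depth per library is unknown, so low values such as those of put1, adh4 and lys12 cannot be told from the minimum with any stated precision.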

Other observations

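The median share of G and C in called member regions was 43.3% (37.8% to 48.5%), against 42.7% over all called regions and 36.1% over the genome.

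Members under no region were shorter than called ones, with a median gene length of 1333 bp against 2002 bp, and other genes showed 1326 bp and 1985 bp. Alcohol dehydrogenase adh4 and the steroid dehydrogenase gene SPBC106.03 were not called in the authors' deposited table, with 0.770 and 1.89 normalised reads at 0 h and 24 h for adh4 and 15.6 and 10.5 for SPBC106.03. Glycerol dehydrogenase gld1, which starts the use of glycerol in fission yeast, had 16.0 and 31.9 normalised reads there, and alcohol dehydrogenase adh8 had 3.72 and 24.0; neither was called in the authors' deposited table (FDR 0.763 and 0.178).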
